A study of Mus musculus with 60 samples.

Results

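Voltage-gated sodium, calcium and potassium channels, with the potassium channels and accessory subunits that share their naming, were followed in the striatum of 60 mice. A gene was counted as a member when its symbol started with Scn and a digit, Cacna, Cacnb, Cacng, Kcn, or Hcn and a digit. This gave 70 of the 9066 genes in the deposited gene table and 1135 of the 114691 exon rows in the deposited exon table. The prefixes also take in inward rectifier, leak and ligand-activated potassium channels and a glutamate receptor subunit, which are not gated by voltage alone. Of the 143 annotated symbols that carry these prefixes, the remaining ones are not analysed here, among them Scn4b, Kcnj4, Kcnip1, Cacng2 and Cacng3. The rule used names only and no measured value.

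The mice were HS-CC animals, an outbred stock derived from the inbred founder strains of the Collaborative Cross. The paper states that they descend from generations bred selectively for their response to haloperidol. The labels give no line, generation or kinship, so shared descent and phenotype cannot be told apart here. PolyA RNA of striatum was sequenced in 1 library per mouse. The labels record sex and the outcome of a catalepsy test, in which an animal that stays immobile in an imposed posture responds. The female mice were 13 non-responders and 15 responders, and the male mice 17 and 15. The HS-CC stock, tissue and library method were shared by all 4 groups, and no age or drug treatment is given in the labels. Values are normalised read counts, and changes are on the log2(value + 1) scale.

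A neuron fires when sodium channels open and sodium enters the cell, and voltage-gated potassium channels end the impulse and set how soon the next one can follow. Calcium channels turn the impulse into a calcium signal that releases transmitter and drives transcription. The pore is formed by a large alpha subunit, and beta, alpha2delta, KChIP and Kv-beta subunits change its gating or its delivery to the membrane. In striatal projection neurons, inward rectifiers hold the cell at a very negative resting potential and A-type potassium channels delay its first spike.

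The libraries held 4913122 to 21872744 recovered reads, with a median of 14520042. They fell into a shallower block of 17 mice, with 4913122 to 9507322 reads, and a deeper block of 43, with 12051239 to 21872744, and the shallower block was spread over the groups as 4, 4, 5 and 4 mice in that order. A 3′ bias score, the median over 2173 genes of the log2 slope of exon values along the transcript, set against the average mouse, stood apart in mouse 63 (1.83), mouse 5 (1.07), mouse 4 (0.816) and mouse 62 (0.559). The shallower libraries were those of mice 41 to 56 and of mouse 26. What this run of mouse numbers stands for is not given in the labels. Shallower libraries had lower bias scores (median -0.266 against -0.007). Of 16 projection neuron markers 12 were in the table, and they summed to 94801 to 201050 per mouse. Of 17 markers of cortical excitatory neurons 5 were in the table, Tbr1, Cux2, Rorb and Mpped1 among them, and they summed to 3093 to 12566, so that a signal of cortical markers was present in each striatal sample. The summed cortical markers ranged from 3093 to 11048 in responders (median 6882) and from 4201 to 12566 in non-responders (median 7267). Fewer cells of a type and less RNA per cell cannot be told apart in these bulk samples.

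Levels were compared between genes only after division by exon length, as the mean normalised read count per kilobase of exon. The sodium channel accessory subunit Scn2b was the highest member, at 2274 per kilobase ± 356 (SD, n = 60). Scn3b, the other measured sodium beta subunit, was at 624 ± 86.0 and lower than Scn2b in each of the 60 mice. Among the pore-forming sodium subunits, Scn2a, found along axons and at the axon initial segment, led with 606 ± 122. Scn8a, which carries the sodium current of mature nodes and initial segments, followed at 463 ± 122, and Scn2a was above Scn8a in 58 of 60 mice. Scn1a was at 319 ± 90.7 and Scn9a, best known from sensory neurons, at 9.99 ± 3.07.

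**Figure D1:**
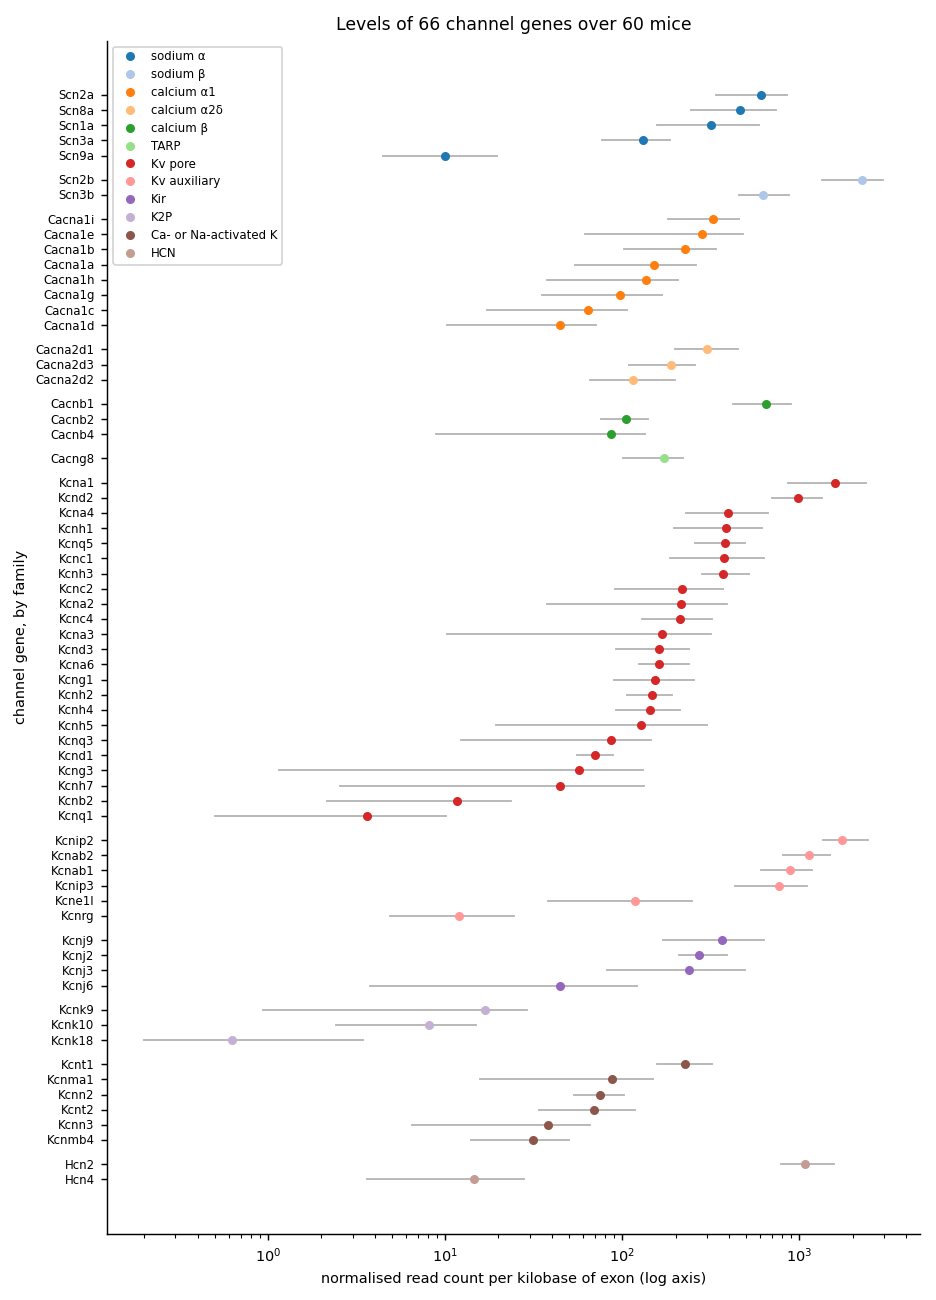
Mean level of 66 of the 70 channel genes over 60 mice, as normalised read count per kilobase of exon on a log axis, grouped and coloured by family; grey lines run from the lowest to the highest mouse, drawn from 0.2 upward. Scn2b, Kcnip2 and Kcna1 have the highest means (2274, 1735 and 1583), and Kcnk18, at 0.623, the lowest.

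The calcium channel pore genes were lower and closer together. The T-type subunit Cacna1i (327 ± 53.9 per kilobase) and the R-type subunit Cacna1e (283 ± 86.2) came first, and Cacna1i was above Cacna1e in 46 of 60 mice. The transmitter release channels of the N type, Cacna1b (227 ± 52.3), and of the P/Q type, Cacna1a (151 ± 36.6), stood above the L-type subunits Cacna1c (64.4 ± 19.6) and Cacna1d (44.5 ± 13.2). Among the accessory subunits Cacnb1 (645 ± 87.3) was above Cacnb2 (105 ± 15.0) in every mouse, while Cacnb4 was at 86.5 ± 22. Cacna2d1, a target of gabapentin, was at 301 ± 60.9, Cacna2d3 at 189 ± 33.5 and Cacna2d2 at 115 ± 27.5. Cacng8, which accompanies AMPA receptors, was the single gamma-type gene in the table (172 ± 28.7).

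Potassium channels held the largest number of members. Kcna1, an axonal delayed rectifier, was the highest pore gene by this measure (1583 ± 302 per kilobase), and the A-type subunit Kcnd2 was at 984 ± 139. With the longest transcript as length Kcna1 was at 1877 and no longer the highest of the Kv family. Kcnd2 exceeded Kcna4 in all 60 mice. Below Kcnd2 the order was loose. Kcna4 (397 ± 98.7), Kcnc1 (376 ± 83.9), Kcnc2 (218 ± 73.7) and Kcna2 (214 ± 65.4) had overlapping ranges, and Kcnq3, a subunit of the M channel, was at 87.0 ± 26.9.

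Accessory Kv subunits were abundant. Kcnip2, the KChIP that binds Kcnd2, was at 1735 ± 243 per kilobase, Kcnab2 at 1133 ± 150 and Kcnab1 at 885 ± 156. Kcnip2 was above Kcnab2 in 59 of 60 mice. Among inward rectifiers the G protein-activated subunits Kcnj9 (364 ± 115) and Kcnj3 (237 ± 90.5) flanked the constitutive Kcnj2 (271 ± 44), and Kcnj6 was at 44.6 ± 24.9. The order Kcnj9 over Kcnj2 held in 43 mice and that of Kcnj2 over Kcnj3 in 37.

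Sodium-activated Kcnt1 (225 ± 32.2 per kilobase) was above the large-conductance calcium-activated Kcnma1 (88.0 ± 28.1) and the small-conductance Kcnn2 (75 ± 10.6). Hcn2, a channel opened by hyperpolarisation, was at 1080 ± 169. Among the genes in the deposited table, the leak channels Kcnk9 (16.8 ± 6.22) and Kcnk10 (8.14 ± 2.36) were the lowest family. Only 3 leak channel genes were in that table, which holds as many genes as the paper kept after its filters. Leak channels outside the table were not ranked. Kcnk18 had a mean normalised read count of 2.16 and was left out of the tests, which required a mean of 10. Over 58 pairs of neighbours in the order of a family, 17 kept their order in all 60 mice and 23 kept it in fewer than 45, most of these in the Kv family.

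The members varied more between mice than most genes. Over the 65 members averaging at least 100 normalised read counts, the median coefficient of variation (CV, SD over mean) was 0.23, beside 0.156 over 7849 genes of the same minimum. Without the 4 mice of strongest 3′ bias the medians were 0.197 and 0.137. Among the most variable members were Kcnj6 (CV 0.559), Kcnh7, a pore subunit of the Erg group (0.554), Kcng3, a silent subunit that needs a partner to form a channel (0.533) and Kcnh5 of the Eag group (0.463). Among the steadiest were Kcnd1 (CV 0.122) and Kcnh3 (0.126).

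The first comparison asked which channel genes differ with the catalepsy phenotype. Of 69 members tested 1 was called at an adjusted p under 0.05, beside 9 of 8535 genes (0.105%), of which 5 (0.0586%) were lower in responders. The called member was Kcng1 (ENSMUSG00000074575; GRCm38 chromosome 2, 168260117 to 168281736, minus strand), a silent Kv subunit that forms no channel alone and modifies Kv2 channels. In non-responders its normalised read count ran from 514.0 to 1153.5 with a median of 750.0. In responders it ran from 406.0 to 826.0 with a median of 617.0. The groups overlapped: 6 of 30 responders were below the lowest non-responder, 10 non-responders were above the highest responder, and 28 responders were below the non-responder median.

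Kcng1 was lower in responders by a log2 change of -0.30 (SE 0.068; limma, adjusted p = 0.0394). The mean was 761 ± 140 (SD, n = 30) in non-responders and 616 ± 113 (n = 30) in responders. The difference had the same direction in both sexes: the median was 731.0 in female non-responders and 610.0 in female responders, and 761.0 and 625.0 in the male groups. It was also of similar size in both library blocks, with -0.30 (SE 0.079) in the deeper and -0.29 (SE 0.12) in the shallower block. Within a single block or sex the limma adjusted p was 0.168 in the deeper block, 1 in the shallower block, 1 in females and 0.79 in males.

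**Figure D2:**
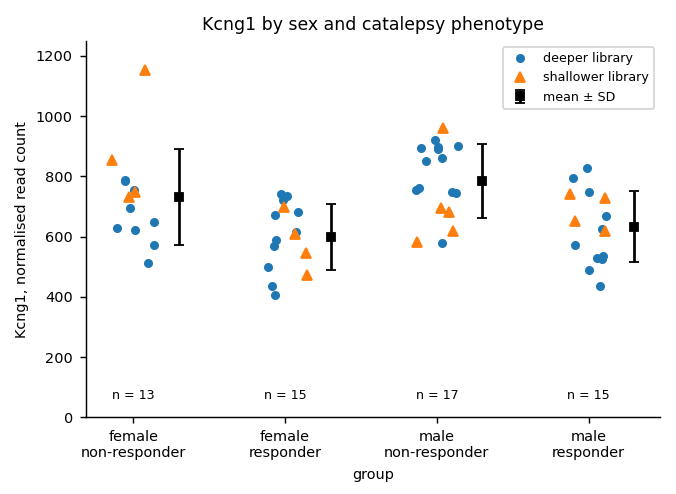
Kcng1, in normalised read counts, in each mouse of the 4 groups; circles are deeper and triangles shallower libraries, and squares with bars give the mean ± SD. Both responder groups have lower means than the non-responders of the same sex, and the ranges overlap.

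The call for Kcng1 lay close to the threshold. With each mouse left out in turn, the log2 change stayed between -0.32 and -0.27, but the limma adjusted p rose to 0.05 or more for 29 of the 60 mice, with values from 0.016 to 0.0718 over all omissions. The mice whose omission ended the call were 1, 2, 4, 6, 14, 16, 19, 22, 24, 27, 28, 31, 32, 33, 35, 37, 38, 40, 41, 44, 46, 47, 49, 52, 53, 58, 61, 62 and 63. Mouse 53, a female non-responder with the highest value, gave the smallest difference when left out (-0.27, adjusted p = 0.061). Mouse 63, the responder of strongest 3′ bias, had the lowest value, and without it the adjusted p was 0.0514. With the 3′ bias score in the fit the change was -0.28 (limma, adjusted p = 0.0207), and with the cortical marker score in the fit it was -0.29 (limma, adjusted p = 0.0404).

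All 4 exon rows of Kcng1 had lower medians in responders. The most abundant row, the last in the direction of transcription (mm9 position 168085617), had a median of 514.5 rounded normalised counts in non-responders and 425.5 in responders. The next row (position 168093969) had 202.0 and 162.0. The first rows (positions 168106881 and 168106378) were sparse, with medians of 13.0 and 11 and of 22 and 19. Of 10 tested genes within 1000000 bases of Kcng1, none had an unadjusted p under 0.05 (limma), and none was called.

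At an unadjusted p under 0.05 there were 5 members (7.25%), beside 6.49% of all genes. Besides Kcng1 these were Kcnk10, Kcnj2, Kcnip3 and Kcnn2, and none of them passed the adjusted threshold. Kcnk10, a leak channel opened by stretch and lipids, had medians of 77.1 in non-responders (35.1 to 131.0) and 64.6 in responders (21.2 to 101.0), a log2 change of -0.28 (SE 0.12; limma, adjusted p = 0.557). Kcnj2, the inward rectifier, had medians of 1355.5 and 1530.1, with ranges of 1137.0 to 1937.4 and 1137.8 to 2129.9 and a log2 change of 0.12 (SE 0.057; limma, adjusted p = 0.705). Kcnip3, a calcium sensor of the KChIP group, had medians of 2797.8 and 2649.7 and a log2 change of -0.14 (SE 0.067; limma, adjusted p = 0.737). In each case the ranges of the 2 phenotypes overlapped over most of their length.

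Below the threshold, more members had negative than positive phenotype changes: 53 of 69 (76.8%) were lower in responders by the sign of the log2 change, beside 52.1% of all genes, and the median change was -0.06, beside -0.0033. The members vary together, so they are no independent counts of a direction. Leaving out mouse 63 left 43 of 69 lower (62.3%, all genes 49.7%, median -0.0155), whereas leaving out mice 63, 5, 4 and 62 together left 51 (73.9%, all genes 51.7%, median -0.0429). With the library block in the fit 51 were lower as well (73.9%, all genes 51.6%). With the 3′ bias score in the fit 40 of 69 were lower (58%, all genes 48.9%, median -0.00717), and with the cortical marker score in the fit 43 (62.3%, all genes 50.1%, median -0.0201).

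Among the sodium, calcium, HCN and TARP genes no member was called by phenotype, and of the 44 tested partner genes of these channels, such as the anchoring proteins Ank2 and Ank3, the Fgf13 and Fgf14 modulators and the Dpp6 and Dpp10 subunits, none was called either. None of these 44 had an unadjusted p under 0.05 (limma).

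By sex none of the 69 members was called and none had an unadjusted p under 0.05, beside 3 called genes (0.0351%) in all. The smallest p-values belonged to the fast Kv subunit Kcnc2 (females over males by 0.22 on the log2 scale, SE 0.12), to Scn2b (0.10, SE 0.061) and to Kcnh4 (-0.10, SE 0.066), each with a limma adjusted p of 1. For the difference of the phenotype effect between the sexes, no member and no gene was called (0%), and no member had an unadjusted p under 0.05; in all 48 genes did. The edgeR quasi-likelihood fit on the recovered reads also called no member in either comparison. The 3 members of smallest interaction p were Kcne1l (0.41, SE 0.27), Kcnt1 (0.14, SE 0.11) and Kcna6 (0.12, SE 0.10).

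The series was deposited with exon values so that splicing could be read from it. For the exon comparisons each row averaging at least 10 was set against the other rows of its gene, and 727 member rows of 62 genes could be tested. None was called by phenotype, beside 88 of 66690 rows (0.132%), and 8 (1.1%) had an unadjusted p under 0.05, beside 2.5% of all rows (limma diffSplice). None was called by sex, beside 0.009% of all rows, and 3 (0.413%) had an unadjusted p under 0.05, beside 1.43% of all rows.

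Most rows of smallest p were sparse or of uncertain size. By sex a fuller row was that of Scn3b at chromosome 9 position 40086960, the 3rd of 5, which was not called. Its medians were 121 in females (37 to 195) and 145 in males (84 to 190), with a log2 usage difference of -0.27 (SE 0.10). In Cacnb1 the row at mm9 chromosome 11 position 97873180, the 8th of 17, had a median of 9.0 in non-responders and 11 in responders (log2 usage difference 0.32, SE 0.10; limma diffSplice, adjusted p = 0.482). In Kcnh4 the row at position 100613559 had medians of 11 and 11.5 (0.33, SE 0.13, adjusted p = 1 by limma diffSplice). In Kcnh3 the row at chromosome 15 position 99072181 had a median of 11 in females and 10 in males (0.29, SE 0.075; limma diffSplice, adjusted p = 0.502). The ranges overlapped in each case, from 2 to 21 and from 2 to 22 for the Cacnb1 row, from 2 to 22 and from 5 to 28 for the Kcnh4 row, and from 7 to 23 and from 3 to 17 for the Kcnh3 row, in the same order of groups.

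Cacna1e held a row that passed the phenotype threshold under 1 of the alternatives. This row, at mm9 chromosome 1 position 156272967, the 37th of 47, had values from 7.0 to 133.0 in non-responders with a median of 64, and from 1.0 to 112.0 in responders with a median of 46.5. As a share of all exon values of Cacna1e this was a median of 0.866% and 0.702%. The log2 usage difference was -0.59 (SE 0.25; limma diffSplice, adjusted p = 1). With the 3′ bias score in the fit the difference was -0.57 (SE 0.12) and passed the threshold (limma diffSplice, adjusted p = 0.00355), whereas without mice 63, 5, 4 and 62 it was -0.52 (SE 0.16, adjusted p = 0.232 by limma diffSplice).

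The same Cacna1e row had the largest spread over mice of all member rows averaging at least 50. The SD of its log2 share was 0.809, and it was 0.67 without the 4 mice of strongest bias, beside medians of 0.266 and 0.187 over these rows. The next were rows of Scn8a at chromosome 15 position 100787892, the 3rd of 27 (SD 0.678, values from 2 to 126), of Cacna1i at chromosome 15 position 80128824, the 2nd of 37 (0.657, 5 to 167), of Kcnt1 at chromosome 2 position 25746167, the 6th of 32 (0.628, 11 to 156), and of Scn8a at position 100799452, the 6th of 27 (0.628, 7 to 248). These other rows lie in the 5′ part of their genes. Without the 4 mice the SD fell to 0.342 and 0.269 for the Scn8a rows and to 0.425 for the Cacna1i row, and it was 0.541 for the Kcnt1 row.

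Many members also differed with the cortical marker score, the mean of the 5 cortical markers in SD units per mouse. Per unit of this score 44 of 69 members were called, 39 higher and 5 lower, beside 44.3% of all genes, 23% higher and 21.2% lower. The median log2 change per unit was 0.17 over the members and -0.0013 over all genes. The score ran from -1.38 to 1.78 in non-responders (median 0.26) and from -2.40 to 1.35 in responders (median -0.04). It correlated with the striatal projection neuron score (Pearson r = -0.61), the oligodendrocyte score (r = -0.687) and the 3′ bias score (r = -0.306) over the 60 mice, as descriptions of measures taken from the same libraries. With block and 3′ bias as terms, 39 of the 44 called members were still called and 5 were not. The part of each of these measures in the results was not tested beyond the fits given here.

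**Figure D3:**
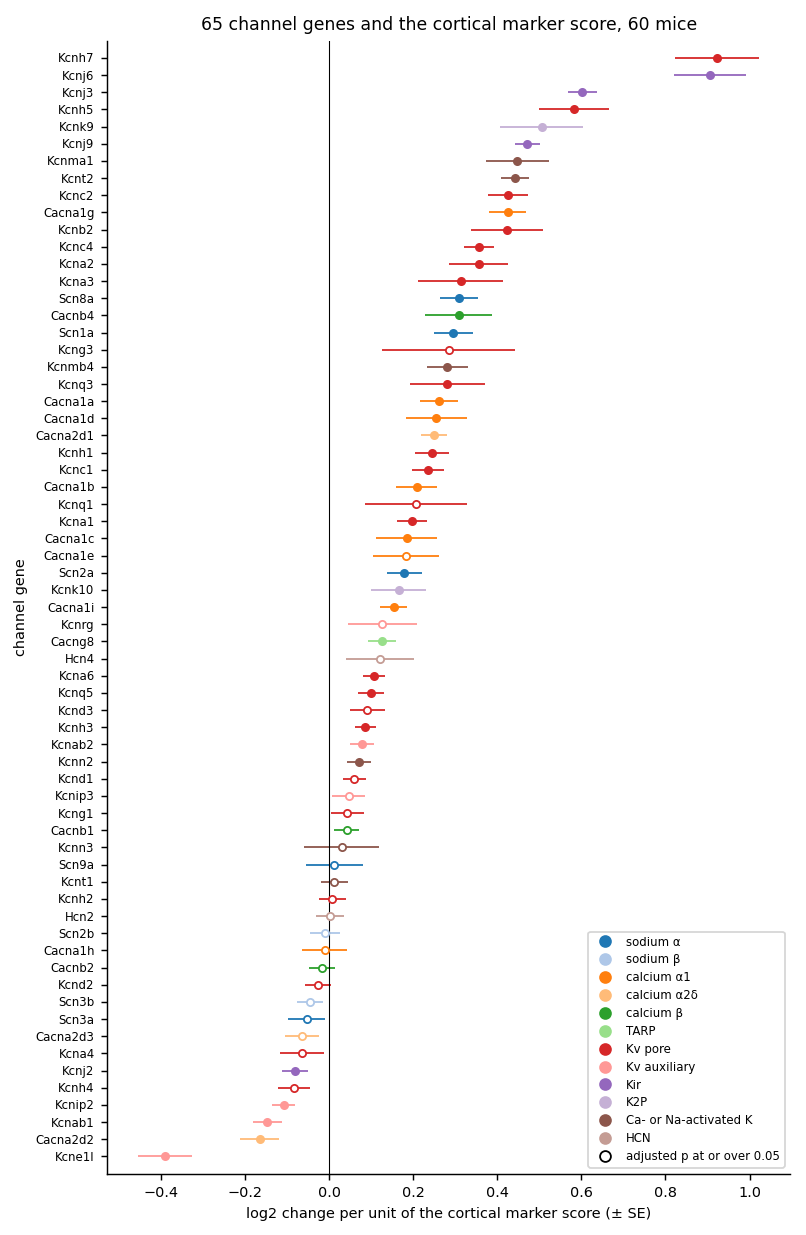
Log2 change per unit of the cortical marker score, with its SE, for 65 of the 69 tested channel genes in 60 mice; filled points have an adjusted p under 0.05 and colours mark families. Kcnh7 and Kcnj6 have the largest positive values (0.92 and 0.91) and Kcne1l the most negative (-0.39).

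Inward rectifiers showed both directions. All 4 members of the family were called: the 3 G protein-activated subunits Kcnj3, Kcnj6 and Kcnj9 were higher and Kcnj2 was lower with the score. Kcnj3 ran from 428.0 to 2583.3 normalised read counts over the mice, with a median of 1128.9, and changed by 0.60 per unit (SE 0.035; limma, adjusted p = 1.94e-22). Kcnj9 ran from 734.0 to 2726.1 (median 1440.1) and changed by 0.47 (SE 0.0295; limma, adjusted p = 8.91e-21). Kcnj6 ran from 29 to 924.0 (median 328.0) and changed by 0.91 (SE 0.085; limma, adjusted p = 1.52e-13). Kcnj2 changed by -0.08 with a range of 1137.0 to 2129.9.

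For Kcnj3 and Kcnj9 the relation was nearly the same in both library blocks. The change per unit was 0.63 in the deeper and 0.59 in the shallower block for Kcnj3 and 0.49 and 0.44 for Kcnj9. For Kcnj6 it was 0.95 and 0.74, and with block and 3′ bias as terms 0.73. Kcnj2 was not called within either block (-0.09 and -0.13; limma, adjusted p = 0.0749 and 0.0834).

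**Figure D4:**
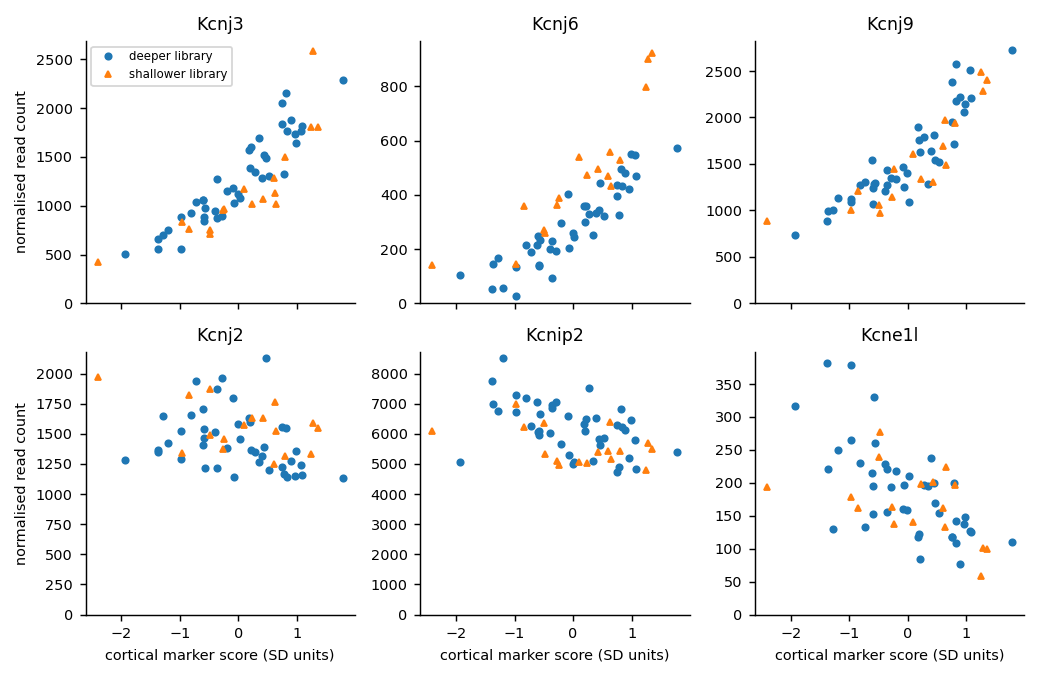
Normalised read counts of 6 channel genes against the cortical marker score in 60 mice; circles are the 43 deeper and triangles the 17 shallower libraries. Kcnj3, Kcnj6 and Kcnj9 rise along the score in both blocks, while Kcnj2, Kcnip2 and Kcne1l are lower at higher scores with wide scatter.

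The sequences before the transcription starts of these 4 rectifiers are shown because Kcnj3, Kcnj6 and Kcnj9 moved together and Kcnj2 against them. Each is the 250 bases before the RefSeq start on the GRCm38.p6 build, 5′ to 3′ on the strand of the gene; 51 of the 70 members have an entry in the table and Kcng1 has none. Kcnj3 is at chr2:55435720-55435969 on the plus strand, Kcnj6 at chr16:94997697-94997946 on the minus strand (the more upstream of 2 starts), Kcnj9 at chr1:172329323-172329572 on the minus strand and Kcnj2 at chr11:111065914-111066163 on the plus strand. Capitals mark matches on either strand to any of 4 short motifs. The GC box, to which Sp1 binds, was searched as GGGCGG. The TATA box, where the start of transcription is positioned, was searched as TATAAA. The cAMP response element, bound by CREB, was searched as TGACGTCA. One form of the E-box, a site of basic helix-loop-helix factors, was searched as CAGATG.
Kcnj3: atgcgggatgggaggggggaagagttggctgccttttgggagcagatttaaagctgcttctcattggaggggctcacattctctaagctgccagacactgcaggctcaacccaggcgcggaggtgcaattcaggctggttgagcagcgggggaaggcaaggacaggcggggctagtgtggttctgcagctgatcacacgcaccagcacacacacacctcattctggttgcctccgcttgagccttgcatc
Kcnj6: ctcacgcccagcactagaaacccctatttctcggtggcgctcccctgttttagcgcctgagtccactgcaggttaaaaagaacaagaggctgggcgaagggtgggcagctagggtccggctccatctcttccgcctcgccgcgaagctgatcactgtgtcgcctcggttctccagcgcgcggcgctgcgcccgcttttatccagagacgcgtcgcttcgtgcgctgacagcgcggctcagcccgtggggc
Kcnj9: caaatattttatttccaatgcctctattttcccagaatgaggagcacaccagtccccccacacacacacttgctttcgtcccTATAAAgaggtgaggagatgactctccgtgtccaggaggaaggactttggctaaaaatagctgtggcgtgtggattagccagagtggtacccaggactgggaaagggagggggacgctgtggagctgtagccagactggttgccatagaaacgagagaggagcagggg
Kcnj2: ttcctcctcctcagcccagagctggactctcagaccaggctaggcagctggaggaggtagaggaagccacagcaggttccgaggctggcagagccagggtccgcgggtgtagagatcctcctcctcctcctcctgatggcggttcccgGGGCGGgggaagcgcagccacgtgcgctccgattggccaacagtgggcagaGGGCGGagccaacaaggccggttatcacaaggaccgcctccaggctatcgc
Kcnj2 held 2 matches to the GC box, a motif present in 32.7% of 32851 promoters of the same length. Kcnj9 held 1 match to TATAAA, present in 12.4%. The TATAAA match lies nearer to the far end of the window than to the start, and whether it positions transcription was not tested. No match to any of these motifs was found in the Kcnj3 and Kcnj6 windows. The cAMP response element occurs in 1.55% of promoters and the E-box in 14.4%. The number of CG dinucleotides was 26 in Kcnj6, 14 in Kcnj2, 7 in Kcnj3 and 5 in Kcnj9, and no motif of the 4 was found in more than 1 of the 3 genes that were higher with the score.

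In the Kv family 16 of 26 members were called and all 16 were higher with the score. The largest changes were those of Kcnh7 (0.92, SE 0.10) and Kcnh5 (0.58, SE 0.084). Genes of the Kv3 group, which lets neurons fire fast, were called and higher, with Kcnc2 at 0.43 (SE 0.048), Kcnc4 at 0.36 (SE 0.0355) and Kcnc1 at 0.24 (SE 0.038). Kcnd2 and Kcna4 were not called. Kcng1, the gene called by phenotype, was not called by the score (0.04 per unit).

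Kcnb2, a delayed rectifier of the soma and dendrites, was among the called genes (0.42, SE 0.086). The axonal subunits Kcna2 (0.36, SE 0.07) and Kcna1 (0.20, SE 0.035) were called as well, as were Kcnq3 (0.28, SE 0.089) and Kcnq5 (0.10, SE 0.031). With block and 3′ bias as terms the changes of these last genes were 0.20 for Kcna2, 0.15 for Kcna1, 0.08 for Kcnq3 and 0.07 for Kcnq5. Kcng3 had a change of 0.28 per unit with an SE of 0.16 and did not pass (limma, adjusted p = 0.134). Kcna3 (0.31 over all mice) was at -0.0049 in the shallower block and at 0.07 with block and 3′ bias as terms (limma, adjusted p = 0.0892). Its lowest values were 49.9 in mouse 5 and 19.3 in mouse 63.

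Sodium and calcium channels were mostly higher with the score or not called. Scn8a (0.31, SE 0.0445), Scn1a (0.30, SE 0.047) and Scn2a (0.18, SE 0.042) were called, whereas Scn3a, Scn9a and both beta subunits were not. Of the calcium pore genes 6 of 8 were called and all were higher, led by the T-type Cacna1g (0.42, SE 0.044), which was also higher within the deeper (0.51) and the shallower block (0.27). With block and 3′ bias as terms the change was 0.37 for Cacna1g. For Cacna1c it fell from 0.18 to 0.04 (limma, adjusted p = 0.354). Cacna2d1 was higher (0.25, SE 0.031) and Cacna2d2 lower (-0.17, SE 0.047), so the family went both ways. Cacnb4 was higher (0.31, and 0.12 with block and 3′ bias as terms), and Cacnb1 and Cacnb2 were not called.

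Of the 6 accessory Kv members 3 were lower: Kcne1l, a single-span subunit of the Kcne group, by -0.39 (SE 0.063), Kcnab1 by -0.15 (SE 0.034) and Kcnip2 by -0.11 (SE 0.027); Kcnab2 was higher (0.08). Among the HCN genes Hcn2 (0.0025) and Hcn4 were not called. Sodium-activated Kcnt2 (0.44, SE 0.034) and calcium-activated Kcnma1 (0.45) were called, and Kcnt1 was not (0.01). Of the 44 partner genes 26 were called, 22 higher and 4 lower, with the release site protein Rims1 (0.39) among the higher and Rgs9, a striatal marker, among the lower (-0.20). In the deeper block 40 members were called higher and 3 lower, beside 23.6% and 21.5% of all genes. In the shallower block of 17 mice 16 were higher and none lower, beside 3.96% and 2.1%.

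The members also moved with the 3′ bias of the libraries. Per unit of the bias score 52 of 69 members were called, 6 higher and 46 lower, beside 77.1% of all genes, 39.4% higher and 37.7% lower. The scores of mice 63, 5, 4 and 62 stand apart from the others, so these mice weigh heavily in the slopes. No slope without them is given here. All 8 calcium pore genes and all 5 sodium pore genes were lower, with family medians of -0.84 and -0.63. Kcng3 was lowest (-2.97 per unit, SE 0.15) and fell from a median of 163.6 over the 60 mice to 3.86 in mouse 63, with 23.1, 29 and 26.8 in mice 5, 4 and 62. Kcna3, whose gene model is a single exon row of 1902 bases, changed by -2.05 (SE 0.084), with 19.3 in mouse 63 and a median of 327.1. Cacnb4 changed by -1.67 (SE 0.065). Mouse 63 had the lowest value of all 60 mice for 33 of the 69 members. The same share was not computed over all genes, so the count is not given as a trait of the members. The accessory Kv genes went the other way, with 5 of 6 higher.

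**Figure D5:**
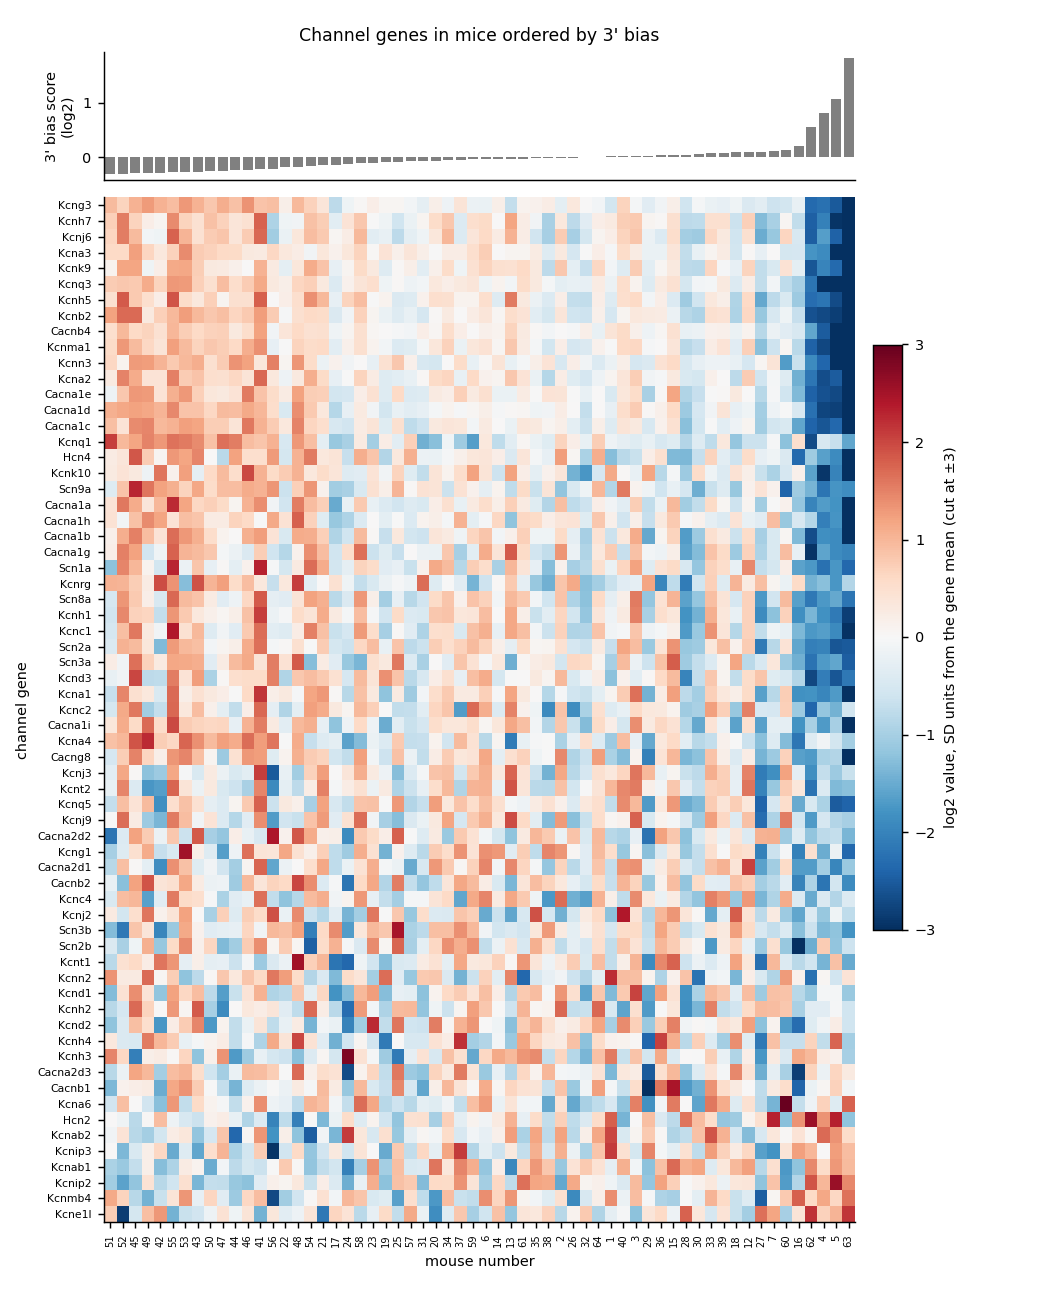
Log2 values of 65 of the 69 tested channel genes in 60 mice, each gene in SD units from its mean, with mice ordered from left to right by the 3′ bias score (bars, log2 units) and genes by their change with it. Mice 62, 4, 5 and 63, at the right end, are low in the upper genes, which include Kcng3, Kcna3 and most calcium pore genes, and high in Kcne1l and Kcnip2.

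Between the library blocks 34 members were called, 30 higher and 4 lower in the shallower block, beside 53% of all genes, 25.3% higher and 27.7% lower. Kcnq1, a cardiac and epithelial subunit that was sparse here, ran from 2.06 to 19.4 in the deeper and from 14.2 to 41.5 in the shallower block (log2 difference 1.36, SE 0.15). Kcng3 ran from 3.86 to 260.6 and from 201.8 to 440.7 (1.43, SE 0.24), and Kcna4 had medians of 1698 and 2450 (0.53, SE 0.073). Mouse 26, with 8271156 reads and a bias score of -0.0087, held both lowest values of the shallower block. In mice 41 to 56 the lowest values were 20.6 for Kcnq1 and 263.9 for Kcng3, above the highest of the deeper block. That separation leaves out mouse 26, and with it the ranges of both genes overlap. The share of all genes that separate in this way was not computed. The blocks differ in depth, in 3′ bias and in the run of mouse numbers, and these cannot be told apart where they move together. Their parts were not tested.

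Over the 60 mice and 2080 pairs of 65 members, the median Pearson correlation of log2 values was 0.35. The same median was not computed over all genes, so it is not given as a trait of the members. Among the highest were those of Kcnh7 with Kcnj6 (r = 0.97, Spearman 0.95), Kcnh7 with Kcnma1 (0.96, Spearman 0.91), Cacna1c with Cacna1e (0.95, Spearman 0.91) and Kcna2 with Kcnma1 (0.95, Spearman 0.92). The points share library, depth and bias. After bias, block and the cortical score were taken out these values were 0.67, 0.81, 0.84 and 0.60, in the same order. The median over all 2080 pairs was 0.34 after that step. The pairs of highest correlation after that step were Cacna1b with Scn8a (0.92), Kcnq5 with Scn2a (0.87), Cacna1b with Cacna1e (0.85), Kcnab1 with Kcnd2 (0.84) and Cacna1c with Cacna1e (0.84).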

How the data were processed

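Striatal polyA libraries of 60 HS-CC mice were used. Gene values are a signal that the authors made from counts on Ensembl gene models, scaled per library by edgeR upper quartile, and dividing by the step of each column gave back whole reads (largest deviation 6.63e-05 reads). Exon values are a score, exon counts that the authors scaled likewise and rounded. The authors aligned with Bowtie 0.12.7 to mm9, and their processing notes name edgeR 3.4.2. The gene values are strand-blind, so overlapping genes can share reads. Every 2 libraries differed by more than counting noise (smallest chi-square per gene 3.03, where 1 would be noise). Symbols were found for 8858 identifiers in GENCODE M21, which also gave exon lengths.

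Genes averaging at least 10 were tested with limma 3.58.1 (trend option, R 4.3.3) on log2(value + 1), with sex and phenotype in each fit and Benjamini-Hochberg adjustment over all genes, at 0.05. Exon rows averaging at least 10 were tested with limma diffSplice. edgeR 4.0.16 on recovered reads was an alternative, beside other filters, scalings, covariates and mouse sets. The limma and edgeR gene fits and limma diffSplice were run on simulated counts with a phenotype change, without 3′ bias in them. The other comparisons were not simulated. Some genes are not reported here. The gene p-values measure the spread between mice. The exon p-values use a variance pooled over the tested rows of a gene, with rows treated as independent. They do not measure the spread between mice of a single row.

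Named with values were called members (at most 10 by p, otherwise the 3 of smallest p), the 2 highest of each family per kilobase, the most and least variable members, a set of subunits known in striatal neurons, the 5 closest pairs and the 5 exon rows of largest spread; further genes were chosen after their values were seen. Members and lists were chosen with earlier results of these data known. Tables and plots used Python 3.11.15, pandas 2.3.3, numpy 2.4.6 and matplotlib 3.10.9.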

Additional observations from a re-analysis of the deposited data

How the results depend on the processing

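The number of members called by phenotype was 1, and it was 0 in the deeper block, in the shallower block, without mouse 63, without mice 63, 5, 4 and 62, in females and in males; over the omissions of 1 mouse it was between 0 and 1. In 9 other settings it was 1 and the gene was Kcng1. By sex and for the interaction it was 0 throughout. Per unit of the cortical marker score, the 39 higher and 5 lower members became 34 and 10 with block and 3′ bias as terms, 34 and 2 with Tbr1 alone, 40 and 3 in the deeper block and 16 and 0 in the shallower block. In the shallower block Kcnn2 (-0.0475), Kcna3 (-0.0049) and Cacna1c (-0.0313) had the opposite sign. No exon row was called by phenotype, but 1 was without the filter (Cacna2d3, mm9 position 29765428, mean 4.92, difference 0.62) and 1 with the 3′ bias score as a term (Cacna1e). The median spread was 0.23 as a CV and 0.352 as an SD of log2 values, which are different measures. The cause of the changes between settings was not tested. The blocks and sexes also hold fewer mice, and the part of that was not tested either. TMM scaling for the score, the omission of single mice and that of mice 56 and 27 were chosen after seeing the data. The highest gene of a family per kilobase changed with the longest transcript as length in 2 of 12 families. In 1 of them it changed to Cacna1e among calcium pore genes, and in the other Kcna1 no longer led the Kv family. No paired analysis was possible because each mouse belongs to 1 group and carries its own number. Depth limits sparse exon rows and genes such as Kcnq1 and Kcnrg most.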

Other observations

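Kcnmb4, the brain beta subunit of the large-conductance calcium-activated channel, was higher with the cortical marker score (0.28 per unit) as its pore gene Kcnma1 was (0.45), while with 3′ bias Kcnma1 was lower (-1.63 per unit) and Kcnmb4 higher (0.36).

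The row of Cacna2d3 at mm9 chromosome 14 position 29858735, the 26th of 38, ran from 27 to 169 with a median of 86.0, and its log2 share varied with an SD of 0.414 (0.425 without mice 63, 5, 4 and 62), with a correlation of 0.0218 with the bias score. The row of Kcnab1 at chromosome 3 position 65157689, the 14th of 19, ran from 31 to 199 and had an SD of 0.624 (0.588 without these mice) and a correlation of -0.628 with the bias score. Its median share of the gene was 0.853% in the deeper and 1.81% in the shallower block. Kcne1l had the most negative correlations with other members, the lowest being -0.77 with Kcnh1 (Spearman -0.75).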
